A study of Homo sapiens with 6 samples.

Results

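The oncomiR-1 cluster of the host gene MIR17HG, which runs from miR-17 to miR-92a, and the miR-106b-25 cluster in MCM7 are sister miRNA clusters, whose members were followed here in extracellular vesicles (exosomes) of MHCC97H, a human hepatoma line of high metastatic potential. A row of the count table was a member when its name, without the arm and the precursor copy number, was miR-17, miR-18a, miR-19a, miR-19b, miR-20a, miR-92a, miR-106b, miR-93 or miR-25. This gave 12 of 1007 rows, which cover 8 of the 9 names (miR-19a was not analysed here). The rows are the 5p arms of miR-17, miR-20a, miR-93, miR-92a-1, miR-25, miR-106b and miR-18a, and the 3p arms of miR-92a, miR-25, miR-106b, miR-18a and miR-19b. The 3 control libraries came from vesicles of cells labelled as controls, and the 3 xanthatin libraries from vesicles of cells kept for 24 h with 4 µmol/L xanthatin, a sesquiterpene lactone of Xanthium plants. Per the labels' protocols both groups shared the cell line and a medium with 5% ordinary and 5% exosome-depleted fetal bovine serum, with DMSO at 0.5% in all experiments. The labels do not say whether libraries came from separate cultures. The p-values thus set the group difference only against the spread between these libraries, which may not be that between cultures. The comparison asked how the vesicles' miRNA content differs after xanthatin.

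As background, each cluster is transcribed as 1 long RNA from which several hairpins are cut, and each hairpin can give a 5p and a 3p mature strand, of which usually 1 is kept in Argonaute and the other is degraded. The MIR17HG transcript is driven by MYC, and its miRNAs are known as oncogenic and restrain the pro-apoptotic protein BIM. The miR-106b-25 cluster sits in MCM7, a replication licensing gene that is switched on by E2F factors, and its members restrain the cell-cycle inhibitor p21 and BIM. A miRNA finds its targets mainly through its seed (bases 2 to 8), so members of both clusters that share a seed share many targets.

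All 12 rows matched a RefSeq mature miRNA (GRCh38.p14), and the mature strands were 21 to 23 nt long with 8 different seeds. The first sequences shown are those with the miR-92a/25 seed, since the main contrast below lies between them. The miR-92b-3p sequence, from a locus outside both clusters, is added because it has the same seed. Capitals mark the seed.
hsa-miR-92a-3p: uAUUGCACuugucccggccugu
hsa-miR-25-3p: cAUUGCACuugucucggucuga
hsa-miR-92b-3p: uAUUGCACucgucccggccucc
Counting from the 5′ end, miR-92a-3p and miR-25-3p differ at 4 of 22 positions (U1C, C14U, C18U and U22A, with the base of miR-92a-3p first). From miR-92b-3p, miR-92a-3p differs at 3 positions (U10C, G21C and U22C). How reads that fit several of these were assigned is not given in the sources used here, so part of the counts may be shared between them.

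The 4 members with the miR-17 seed follow, with 1 member of another seed, miR-106b-3p, which is the partner strand of miR-106b-5p.
hsa-miR-17-5p: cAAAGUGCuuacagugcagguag
hsa-miR-20a-5p: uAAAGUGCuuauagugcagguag
hsa-miR-93-5p: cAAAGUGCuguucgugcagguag
hsa-miR-106b-5p: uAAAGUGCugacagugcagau
hsa-miR-106b-3p: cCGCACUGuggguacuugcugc
In the table, 4 known names carried the miR-92a/25 seed and 4 carried the miR-17 seed. All 4 of the latter were members.

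For the comparison of arms, the hairpins of 3 members are shown, with both mature strands in capitals (the 5p strand comes first).
MIR92A1: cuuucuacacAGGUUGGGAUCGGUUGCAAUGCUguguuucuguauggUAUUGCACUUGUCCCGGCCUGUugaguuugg
MIR25: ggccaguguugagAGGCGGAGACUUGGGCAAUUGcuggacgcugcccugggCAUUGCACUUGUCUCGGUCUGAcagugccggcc
MIR106B: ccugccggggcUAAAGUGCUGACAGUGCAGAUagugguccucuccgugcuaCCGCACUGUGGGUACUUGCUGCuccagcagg
In GRCh38, MIR92A1 lies on the plus strand of chromosome 13 from 91351314 to 91351391, in the host gene MIR17HG, a noncoding transcript (91347820 to 91354579). The 6 hairpins of that cluster lie in an exon of 2 and an intron of 1 of the 3 annotated transcripts of MIR17HG that span them. MIR25 (100093560 to 100093643) and MIR106B (100093993 to 100094074) lie on the minus strand of chromosome 7, in introns of all 8 spanning transcripts of MCM7. The mature sequence of miR-92a-3p is also encoded by MIR92A2 on chromosome X (134169538 to 134169612), in an exon of a noncoding transcript. The counts do not separate these loci, whereas miR-92a-1-5p comes from MIR92A1 only.

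Control libraries held 63965 to 80088 miRNA counts and xanthatin libraries 204520 to 267956, so depth differed between the groups. Levels are given as CPM, counts relative to the library total after TMM scaling, which assumes that most miRNAs do not differ between libraries. It raised the effective size of control libraries (factors 1.08 to 1.17) and lowered that of xanthatin libraries (0.88 to 0.90). A predicted sequence, novel550_mature, rose from 3.83% ± 0.39 (SD, n = 3) to 15.6% ± 1.40 of the counts. The listed hepatocyte markers held 10.96% to 13.8% of control counts and 2.74% to 3.33% of xanthatin counts, with all 5 listed names read. Among them, miR-122-5p was read 4316, 4535 and 2848 times in control against 225, 236 and 218 times in xanthatin libraries. Its log2 fold change was -5.48, beside -1.29 for miR-148a-3p and -1.80 for miR-194-3p, while miR-194-5p went the other way (1.67). Markers of red cells and blood, of which 6 of 7 listed names had rows, held 0.638% to 1.21% of control and 0.0690% to 0.0841% of xanthatin counts. miR-451a, the defining red-cell miRNA, was read 1, 3 and 2 times in control against 1, 9 and 0 times in xanthatin libraries. Vessel and stroma markers (5 of 5 names) held 0.124% to 0.333% and 0.0116% to 0.0215%. By edgeR's test, 2 of 5 tested hepatocyte markers were lower and 1 was higher, and 1 of 2 tested markers was lower in each of the other lists, beside 16.9% lower and 13.4% higher of all 254 tested miRNAs. The red-cell miRNA miR-486-5p, which fell, held most counts of its list in every library (949, 432 and 497 in control, 167, 139 and 115 in xanthatin libraries). miR-16-5p of the same list was read 4, 4 and 2 times in control against 3, 29 and 31 times in xanthatin libraries and was not tested. Since miR-92a, miR-25 and their relatives are also known from red cells and serum, these shares are given here. Their part in the results below was not tested.

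The members ranged from the second most abundant miRNA of a library to single reads. Together they took 11.2% ± 1.23 of the counts in control libraries and 6.99% ± 0.35 in xanthatin libraries, with no overlap between the groups. Most of this sum was miR-92a-3p alone, at 8.94% ± 1.13 in control and 4.51% ± 0.29 in xanthatin libraries. The sum therefore does not describe how the other members differed. hsa-miR-92a-3p stood first in every library, and in each control library it ranked as number 2 of all 1007 rows (number 5, 6 and 5 in xanthatin libraries). hsa-miR-25-3p came next among the members and ranked between 12 and 17. After it came hsa-miR-106b-3p, which ranked between 31 and 45. Each of these 3 was separated from the next without overlap of the libraries in both groups.

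Below them, hsa-miR-92a-1-5p held 823 ± 246 CPM (SD, n = 3) in control and was clear of the next member, while hsa-miR-25-5p (372 ± 129), miR-20a-5p (248 ± 49.9), miR-93-5p (193 ± 236) and miR-17-5p (92.8 ± 35.04) overlapped their neighbours in the order. In xanthatin libraries the order below miR-106b-3p was miR-93-5p (353 ± 115), miR-25-5p (295 ± 84.6), miR-92a-1-5p (154 ± 18.0), miR-20a-5p (78.6 ± 29.6), hsa-miR-106b-5p (76.3 ± 84.2) and miR-17-5p (37.9 ± 4.31). There, miR-93-5p overlapped miR-25-5p, and miR-106b-5p overlapped both miR-20a-5p and miR-17-5p. The remaining 3 rows, miR-18a-5p, miR-18a-3p and miR-19b-3p, never exceeded 3 counts in a library.

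**Figure D1:**
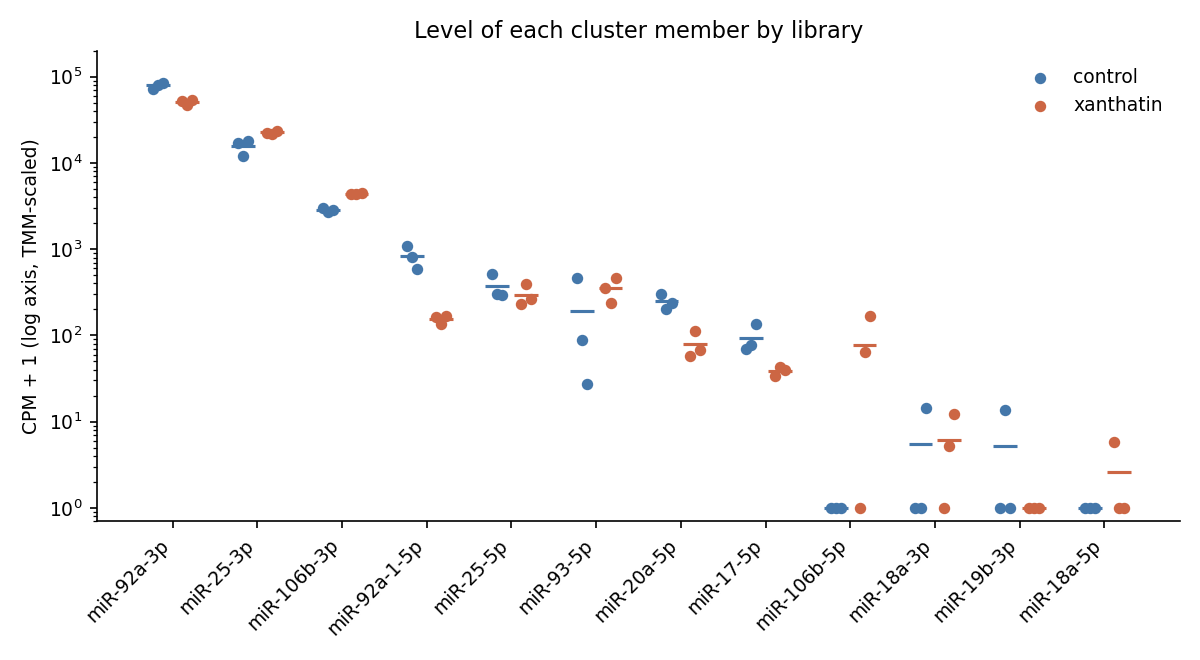
CPM plus 1 on a log axis for the 12 member rows, ordered by mean level, with 1 point per library, the group mean as a bar, and control in blue and xanthatin in orange. Zero counts sit at 1. miR-92a-3p, miR-25-3p and miR-106b-3p stand above all others in both groups.

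Members of the same cluster gave very unequal read numbers. In control libraries there were 640.4 to 1060 reads of miR-92a-3p for each read of miR-17-5p, and 1122 to 1560 in xanthatin libraries. For each read of miR-20a-5p there were 239 to 398 and 416 to 909.8 of miR-92a-3p. Within the other cluster, miR-25-3p exceeded miR-106b-3p by a ratio of 4.46 to 6.31 in control and 4.91 to 5.31 in xanthatin libraries, so this ratio overlapped between the groups. These are reads per name, from strands of 21 to 23 nt, and those of miR-92a-3p may come from both of its loci.

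After xanthatin, miR-92a-3p and its partner strand miR-92a-1-5p fell, and miR-106b-3p rose. Of the 12 rows, 8 had enough counts for the test. By edgeR's quasi-likelihood test (Benjamini-Hochberg adjusted p under 0.05 over all 254 tested miRNAs) 2 of the 8 were lower and 1 was higher, while 5 did not pass. Among all 254 tested miRNAs the shares were 16.9% lower and 13.4% higher, which is the background for these few calls. The libraries of the groups did not overlap for 4 of the 8 members on the lower side and 2 on the higher side, beside 29.5% and 25.2% of all tested miRNAs. The median log2 fold change was -0.49 over the 8 members and -0.16 over all tested miRNAs. miR-17-5p reached the filter on counts only because of its control libraries and miR-20a-5p passed in 3 control libraries and 1 xanthatin library, so these counts are a description of what was tested and not of all members. CPM are relative to the library total, so a lower value is not a measured loss of molecules. In bulk libraries, fewer vesicles that carry a miRNA and fewer copies in each vesicle also cannot be told apart.

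**Figure D2:**
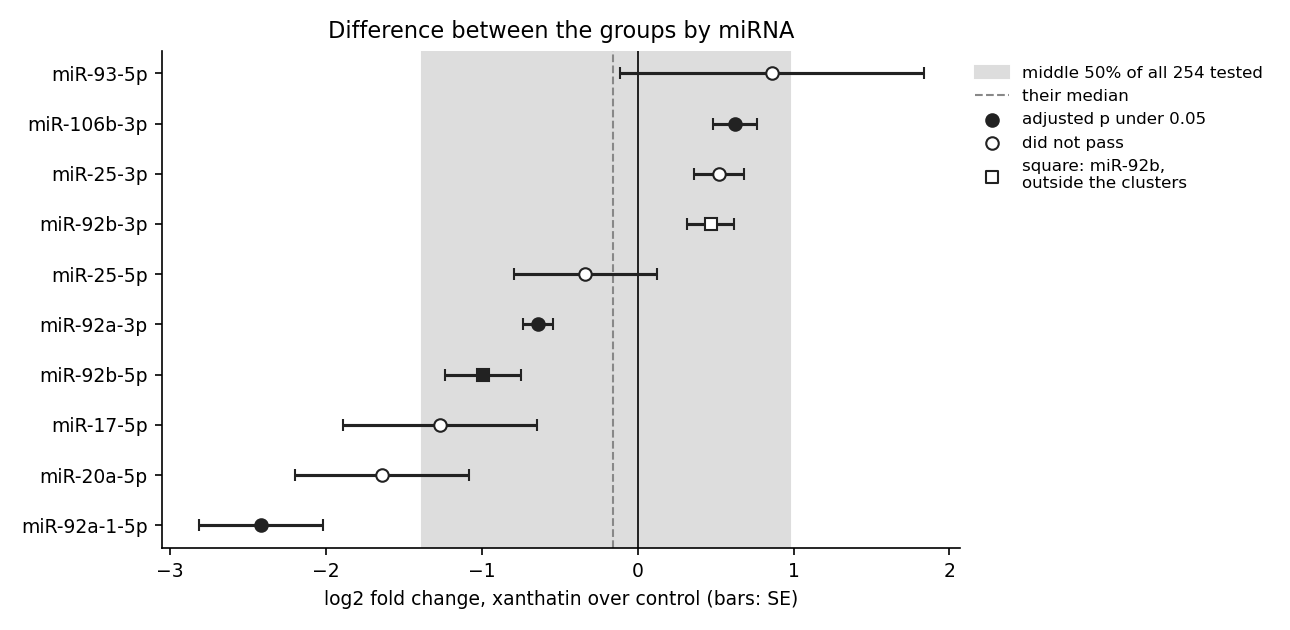
Log2 fold change of xanthatin over control for the 8 tested members (circles) and both arms of miR-92b (squares), with SE bars, filled where the adjusted p was under 0.05. The grey band holds the middle 50% of all tested miRNAs, from -1.38 to 0.98, and miR-92a-1-5p, at -2.42, lies farthest outside it.

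The first seed group holds miR-92a-3p, studied for its roles in blood vessels and in red-cell precursors, and miR-25-3p. In CPM, miR-92a-3p was at 71921, 80370.5 and 85214 in control libraries 1 to 3 and at 51690.4, 46646 and 54073 in xanthatin libraries 1 to 3. Every xanthatin library lay below every control library. The fall was -0.64 on the log2 scale (SE 0.10, edgeR adjusted p = 0.00403). Leaving out control replicate 2 ended the call (-0.55, edgeR adjusted p = 0.0524). So did upper-quartile scaling (-0.56, edgeR adjusted p = 0.0523) and testing all rows unfiltered (-0.37, edgeR adjusted p = 0.118). In raw counts it took 7.76%, 9.06% and 10.01% of control libraries and 4.58%, 4.19% and 4.76% of xanthatin libraries.

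miR-25-3p, which shares that seed and is the main product of its hairpin, was at 17164, 12167 and 17804 CPM in control and 22517, 21668 and 23499 CPM in xanthatin libraries. All xanthatin libraries were higher, yet the log2 fold change of 0.52 (SE 0.16, edgeR adjusted p = 0.0513) did not pass. As a plain share of the counts, miR-25-3p was at 1.85%, 1.37% and 2.09% in control against 1.99%, 1.95% and 2.07% in xanthatin libraries, which overlap. With library totals as the only scaling its log2 fold change was 0.18. That scaling moved the median of all tested miRNAs from -0.16 to -0.49, so relative to this median the value stayed positive. It passed without control replicate 3 (0.70, adjusted p = 0.0148) and with DESeq2 (0.62, adjusted p = 5.06e-04), among 8 of 20 alternative settings.

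The contrast between these members does not depend on how libraries are scaled when it is read as a ratio inside each library. There were 4.19, 6.61 and 4.79 reads of miR-92a-3p per read of miR-25-3p in control libraries, and 2.30, 2.15 and 2.30 in xanthatin libraries. The control ratios all lay above the xanthatin ratios. The mean log2 ratio went from 2.35 ± 0.34 (SD, n = 3) to 1.17 ± 0.05, a difference of -1.18, which is a ratio 2.27-fold lower. With 3 libraries against 3, the two-sided exact permutation p was 0.10, the smallest this design allows (0.20 after Benjamini-Hochberg adjustment over the 4 pairs tested). Leaving out any 1 library gave differences of -1.32 to -0.99.

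miR-92b-3p, from another locus but with the same seed, lay on the side of miR-25-3p, with 14074, 10929 and 12056 CPM in control and 18592, 14393 and 18261 CPM in xanthatin libraries. Its log2 fold change of 0.47 (SE 0.15, edgeR adjusted p = 0.0624) did not pass. The reads of miR-92a-3p per read of miR-92b-3p were 5.11 to 7.35 in control and 2.78 to 3.24 in xanthatin libraries, with no overlap. Over all 4 rows of the seed, miR-92a-3p made up 73.8% ± 3.98 of the reads in control and 56.2% ± 0.41 in xanthatin libraries. The share of miR-25-3p went from 14.6% ± 2.55 to 24.99% ± 1.05, and that of miR-92b-3p from 11.6% ± 1.80 to 18.8% ± 1.33. The seed as a whole held 12.1% ± 1.26 of all counts in control and 8.03% ± 0.53 in xanthatin libraries. None of these shares overlapped between the groups, and no test is given for sums over chosen members.

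**Figure D3:**
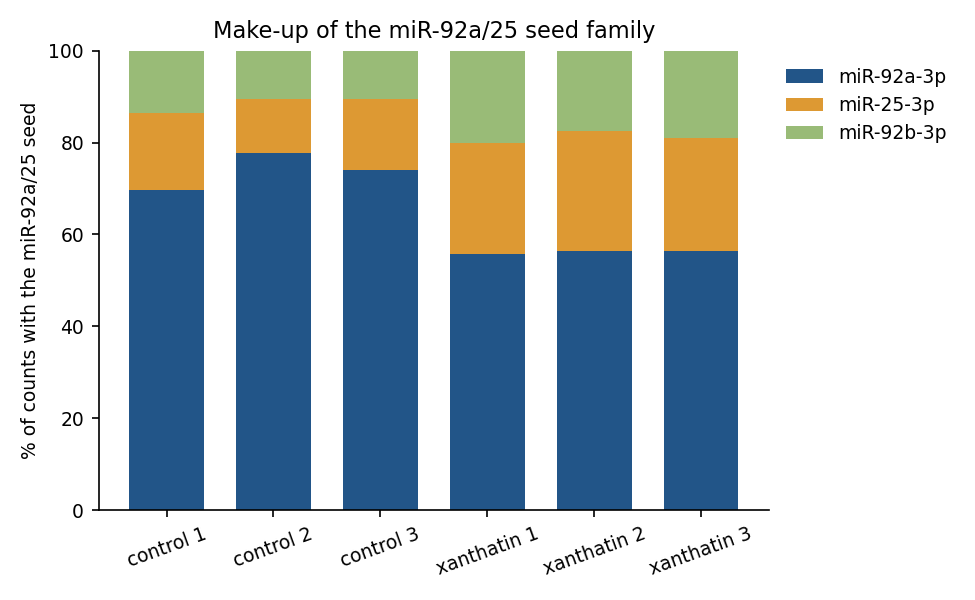
Percent of the counts with the miR-92a/25 seed that came from miR-92a-3p (blue), miR-25-3p (orange) and miR-92b-3p (green) in each of the 6 libraries. The fourth row, miR-32-5p, had 1 count in all and is not drawn. The blue part is 69.7% to 77.7% of control bars and 55.7% to 56.4% of xanthatin bars.

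The second seed group, known for restraining cell-cycle inhibitors, was scarce here: its 4 members held 29 to 72 counts in control libraries and 94 to 133 in xanthatin libraries, 0.0594% ± 0.027 and 0.0484% ± 0.014 of all counts. Those shares overlapped between the groups. For miR-20a-5p the control libraries held 26, 16 and 18 counts, and the deeper xanthatin libraries 12, 27 and 12. In CPM this was 301, 202 and 239.5 against 56.8, 112 and 66.6, without overlap. The row reached the count filter through its control libraries (3, against 1 xanthatin library), so this direction is a description only. Its log2 fold change of -1.64 (SE 0.56, edgeR adjusted p = 0.0676) did not pass. It passed in 4 of 20 alternative settings, at adjusted p = 0.0310 to 0.0428. These were library totals only (-1.98), DESeq2 (-1.54), limma-voom (-1.65) and limma-trend (-1.69). In the other 16 it did not pass, among them every run with 1 library left out. Testing all rows unfiltered gave -1.36 (edgeR adjusted p = 0.428).

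miR-17-5p, which gives its cluster the name, was read 6, 6 and 10 times in control and 7, 10 and 7 times in xanthatin libraries. Scaled, this was 69.4, 75.8 and 133 CPM against 33.1, 41.6 and 38.9 CPM, so the control libraries were all higher. The row reached the count filter only through its control libraries, so this direction is a description only. The log2 fold change was -1.27 (SE 0.62, edgeR adjusted p = 0.162).

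miR-93-5p, of the other cluster, was read 40, 7 and 2 times in control against 75, 57 and 84 times in xanthatin libraries. Control replicate 1 alone, at 463 CPM, reached the xanthatin range of 237 to 467 CPM, and the other controls were at 88.4 and 26.6 CPM. The log2 fold change was 0.86 (SE 0.98, edgeR adjusted p = 0.550), and 2.53 without control replicate 1 (adjusted p = 0.0775). Against miR-25-3p of the same transcript, the mean log2 ratio of miR-25-3p to miR-93-5p was 7.09 ± 1.94 (SD, n = 3) in control and 6.04 ± 0.43 in xanthatin libraries, overlapping, with a two-sided exact permutation p = 0.50. That difference, -1.05, ranged from -1.99 without control replicate 1 to -0.06 without control replicate 3.

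miR-106b-5p, usually taken as the main strand of its hairpin, was not read in the 3 control libraries and had 0, 15 and 30 counts in xanthatin libraries. Pooled over the xanthatin libraries this is 71.2 CPM, 5.71 times the 12.5 CPM that 3 counts over the control group would give. All of these reads came from xanthatin replicates 2 and 3, so the pooled figure does not bound a difference between the groups. Since xanthatin replicate 1 also had 0 counts, the groups overlapped, and the row had too few counts for the test.

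The miR-18a and miR-19b members stayed at the limit of detection. miR-18a-3p had 1 count over the control libraries and 3 over the xanthatin libraries, miR-18a-5p had 0 and 1, and miR-19b-3p had 1 and 0. All lay at or under the floor of 3 counts over the group (12.5 CPM in control, 4.75 CPM in xanthatin libraries), so no fold is given.

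The arms of a hairpin can be compared inside a library as the ratio of their reads. For miR-92a, the 5p strand miR-92a-1-5p was read 93, 64 and 44 times in control but 34, 32 and 30 times in xanthatin libraries, fewer reads in the deeper libraries. In CPM it fell from 1076, 809 and 585 to 161, 133 and 167, a log2 fold change of -2.42 (SE 0.40, edgeR adjusted p = 0.00535). This call held in all 20 alternative settings, with log2 fold changes of -2.75 to -2.06. There were 66.8, 99.4 and 146 reads of miR-92a-3p per read of miR-92a-1-5p in control libraries and 321, 351 and 325 in xanthatin libraries. The groups did not overlap. Reads of miR-92a-3p may also come from MIR92A2, while miR-92a-1-5p comes from MIR92A1 only, so this ratio may not be of 1 hairpin alone. The mean log2 ratio went from 6.62 ± 0.56 (SD, n = 3) to 8.35 ± 0.07, a 3.33-fold larger ratio, with a two-sided exact permutation p = 0.10 (0.20 adjusted over the 4 pairs). Both strands fell, and the log2 fold change of the 5p strand was the lower.

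For miR-25, the 5p strand gave 45, 24 and 22 reads in control against 49, 94 and 47 reads in xanthatin libraries. Its levels of 521, 303 and 293 CPM in control and 232, 391 and 261 CPM in xanthatin libraries overlapped, and its log2 fold change of -0.34 (SE 0.46, edgeR adjusted p = 0.621) did not pass. It held 2.95%, 2.43% and 1.62% of the reads of both strands in control and 1.02%, 1.77% and 1.10% in xanthatin libraries. These shares overlapped, because xanthatin replicate 2 lay above control replicate 3. On the log2 scale the ratio of miR-25-3p to miR-25-5p was 5.41 ± 0.44 (SD, n = 3) and 6.28 ± 0.43, with a two-sided exact permutation p = 0.20 (0.267 adjusted over the 4 pairs).

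miR-106b, like miR-92a and miR-25, was read mainly from its 3p strand, which for miR-106b is often listed as the passenger. The control libraries held 258, 216 and 212 counts of miR-106b-3p, the xanthatin libraries 915, 1061 and 797. It rose from 2986, 2729 and 2821 CPM to 4332, 4411 and 4426.5 CPM, a log2 fold change of 0.63 (SE 0.14, edgeR adjusted p = 0.0183). In plain shares of the counts the groups also did not overlap, at 0.322%, 0.308% and 0.331% against 0.384%, 0.396% and 0.390%. The call was lost without any 1 control replicate or without xanthatin replicate 1 or 2 (0.63 to 0.69, adjusted p = 0.0518 to 0.0658), and with library totals only (0.28, adjusted p = 0.174).

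Beside these reads, miR-106b-5p made up 0 of 686 reads of both strands over the control libraries, which allows a share of up to 0.437% at 3 counts of the total (exact 95% upper limit 0.536%). It made up 0 of 915 reads in xanthatin replicate 1 (up to 0.328% at 3 counts, exact upper limit 0.402%), 1.39% in replicate 2 (exact binomial 95% interval 0.782% to 2.29%) and 3.63% in replicate 3 (2.46% to 5.14%). The xanthatin libraries thus differed among themselves beyond counting error, and no group difference in this share was tested. Such intervals and limits treat reads as independent draws and cover counting error only.

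**Figure D4:**
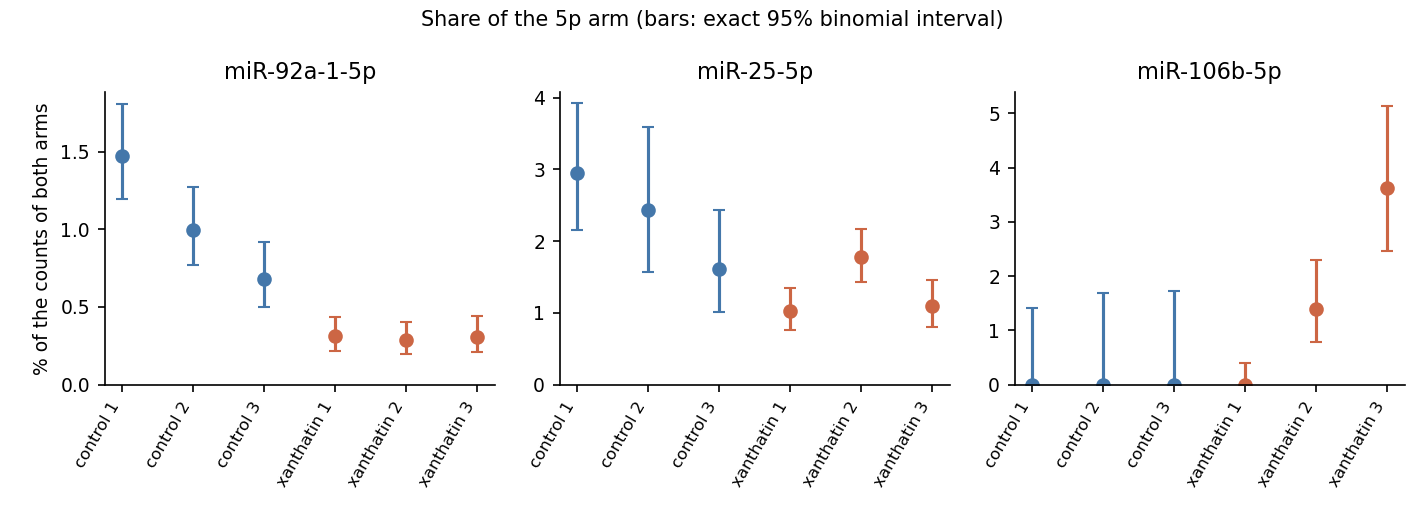
Percent of the reads of both strands that came from the 5p strand of miR-92a-1, miR-25 and miR-106b in each library, with exact 95% binomial intervals. For miR-92a-1-5p all 3 xanthatin libraries lie at 0.284% to 0.310%, below the control libraries at 0.682% to 1.47%. Its partner reads, miR-92a-3p, may also come from MIR92A2.

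Over all 12 rows, the 3p strands held 98.2% ± 0.72 of the member reads in control and 98.7% ± 0.18 in xanthatin libraries, which overlap. Strands with unequal changes were also seen outside these clusters. Among 23 known names with both strands tested, the less abundant strand had the lower log2 fold change in 14, with a median difference of -0.69, and ordered from the lowest difference miR-92a stood at place 6 (-1.78) and miR-25 at place 11 (-0.86). miR-92b stood at place 8: its 5p strand fell, from 3641 ± 756 to 1830 ± 331 CPM (SD, n = 3), a log2 fold change of -0.99 (SE 0.24, edgeR adjusted p = 0.0247).

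**Figure D5:**
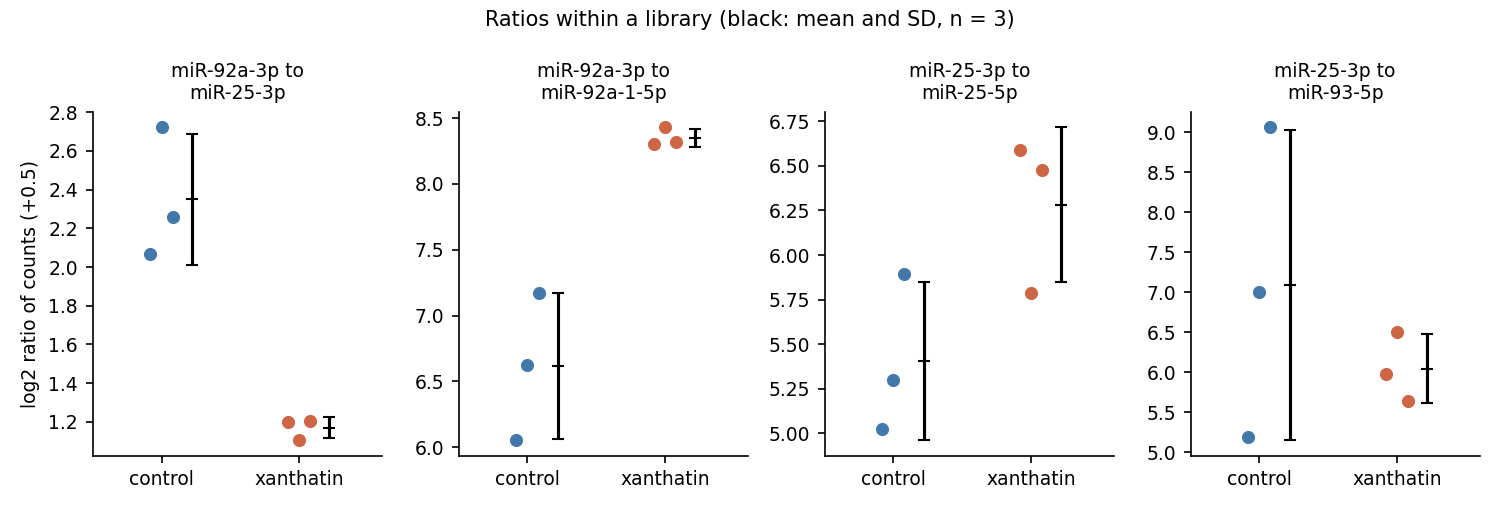
Log2 ratio of counts, with 0.5 added to each, inside each library for the 4 pairs tested, with 1 point per library and the group mean and SD in black. Each panel has its own axis range. The groups separate for miR-92a-3p to miR-25-3p and for miR-92a-3p to miR-92a-1-5p, and overlap for the other two pairs.

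By cluster, names of the MIR17HG cluster made up 80.8% ± 3.29 of the member reads in control and 64.8% ± 0.99 in xanthatin libraries, and names of miR-106b-25 the other 19.2% and 35.2%. Nearly all of the first share was miR-92a-3p (79.6% ± 3.48 and 64.5% ± 1.03 of member reads), whose reads may also come from the chromosome X locus. By seed, members with the miR-92a/25 seed held 95.4% ± 0.98 of member reads in control and 93.1% ± 0.41 in xanthatin libraries. These shares did not overlap, yet in both groups the vesicles' reads from both clusters were nearly all of 1 seed.

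Relatives outside the clusters were few. Of the 4 listed names with the miR-92a/25 seed (miR-32, miR-92b, miR-363 and miR-367), 2 had rows. Of their 3 rows, 2 were tested, of which 1 fell (miR-92b-5p, a strand with another seed) and 0 rose, beside the 16.9% lower and 13.4% higher of all tested miRNAs. The list of names with the miR-17 seed (miR-20b, miR-106a, miR-519d and miR-526b) had 1 row, miR-519d-5p, with 1 count in all. That strand, too, has another seed. The 4 names listed for the paralogous miR-106a-363 cluster (miR-106a, miR-18b, miR-20b and miR-363) had 0 rows, so neither list was tested. That list leaves out miR-92a-3p and miR-19b-3p, which are also encoded on chromosome X and are counted among the members here.

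Across the 6 libraries, the log2 CPM profiles most like that of miR-92a-3p among 253 other tested miRNAs were those of miR-148a-3p (Pearson r = 0.998), miR-372-3p (0.998) and miR-371a-5p (0.997), with log2 fold changes of -1.29, -1.48 and -1.48. For miR-25-3p they were novel36_mature (r = 0.990), miR-100-5p (0.960) and novel478_mature (0.938), with log2 fold changes of 0.96, 0.54 and 2.37. These r values describe 6 points in 2 groups of unlike depth, and each includes the difference between the groups.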

How the data were processed

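Small RNA of 18 to 30 nt was sequenced in 6 libraries, 3 per group, and each library was mapped to its group by its title. Per the file headers, the authors deposited a raw count and a TPM value per mature miRNA name. The submitters' processing notes name the build hg38; aligner, miRNA database and counter were not given in the sources used here. The deposited TPM was proportional to the count within each library and was used only to derive an alternative library size. Depth was as given in the results. Of the table's columns, 0 were left unmapped.

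Counts of all 1007 rows were fitted with edgeR 4.0.16 in R 4.3.3 (quasi-likelihood F test on group, TMM scaling, default filter with a minimum count of 10, 254 rows left, Benjamini-Hochberg threshold 0.05), after tests on simulated data. An SE was taken as |log2 fold change| over √F. Log2 ratios inside a library used a pseudocount of 0.5 and a two-sided exact permutation test with scipy 1.17.1. Of 6 pairs listed, the 4 with both members tested were tested. Replicates differed beyond sampling noise (chi-square per degree of freedom 16.1 to 21.3).

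Sequences come from RefSeq, and host genes from GENCODE release 29. Named are all members, the listed relatives and the 3 closest profiles of miR-92a-3p and miR-25-3p, computed on log2(CPM + 1). The members, lists and pairs were chosen with earlier results of these data known. The comparison of strands over all names was added after seeing the values. Alternatives were other scalings and filters, DESeq2 1.42.0, limma 3.58.1 (voom and trend), a replicate block, each library left out, thinned libraries, known names only, the total implied by the TPM and, added later, leaving out novel550_mature.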

Additional observations from a re-analysis of the deposited data

How the results depend on the processing

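Signs of the 8 tested members and of the 4 ratios did not change in any alternative run. The number of members called lower (2) was 1 with upper-quartile factors and with no count filter, 3 with library totals only, DESeq2, limma-voom and limma-trend (miR-20a-5p added), and 1 to 2 with 1 library left out. The number called higher (1) was 2 with RLE or upper-quartile factors, no count filter, DESeq2, limma-voom, limma-trend and without novel550_mature, each time with miR-25-3p added, and 0 with library totals only. It was 0 to 1 with 1 library left out, where the 1 was miR-25-3p without control replicate 3 and miR-106b-3p without xanthatin replicate 3. Over all tested miRNAs the share of calls on the higher side was 44.2%, but 26.8% with library totals only and 55.2% with no count filter. miR-17-5p had too few counts in 7 of 20 alternatives, so its sign rests on 13.

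Deviations of same-numbered libraries correlated at 0.09, -0.08 and -0.14, which showed no sign of pairing by replicate number. With 3 libraries per group, such correlations cannot decide whether same-numbered libraries were prepared together. With the replicate block, 2 members were called lower and 0 higher (miR-106b-3p at 0.63, adjusted p = 0.0856). For the ratios, the exact sign-flip test over the 3 numbered pairs cannot go below p = 0.25. Few counts limit the precision for the members of the miR-17 seed, and for miR-18a and miR-19b a difference was not detectable at this depth.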
